A study of Mus musculus with 30 samples.

Results

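Signals from interferons and interleukins reach the T cell nucleus through STAT factors, and SOCS proteins switch them off again. The account below follows 9 genes of this circuit in activated mouse CD8+ T cells. They are Ifngr2, a chain of the interferon gamma receptor, the transcription factors Stat2, Stat3, Stat5a and Stat5b, and the feedback inhibitors Socs1, Socs2, Socs3 and Cish. They were chosen by symbol through their Ensembl identifiers, and all 9 were found among the 55573 genes of the count table and among the 11718 genes tested.

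Naive CD8+ T cells of C57BL/6 mice aged 8 weeks were isolated from spleen and lymph nodes with magnetic beads. They were grown for 3 days in serum-free medium on plate-bound antibodies against CD3 and CD28, each at 5 µg/ml, so every group carried this stimulation. The 6 groups, each of 5 libraries (4 from females and 1 from a male), were KO with TGFB1, WT with TGFB1, KO with IL12, WT with IL12, KO with no added cytokine and WT with no added cytokine. TGFB1 was given at 0.5 ng/ml and IL12 at 10 ng/ml. KO names the libraries labelled as lacking Furin, the gene of a proprotein convertase. The labels do not give the part of Furin that was deleted, nor the promoter or cell type that drove the deletion. Libraries are named below by genotype and by the number in their titles, which are 63, 68, 70, 73 and 74 for KO and 62, 67, 71, 72 and 75 for WT. Values per library follow this order, so the first value of each group is that of its male, KO 63 or WT 62.

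The receptors for interferons and for the interleukins named here lack an enzyme of their own and use Janus kinases (JAKs) bound to their tails. This account does not cover the receptors for TGFB1. A kinase switched on by the cytokine phosphorylates a STAT factor, which pairs with another STAT, enters the nucleus and binds DNA. In T cells type I interferon acts in part through STAT2, IL6 and IL21 through STAT3, IL2 through STAT5A and STAT5B, and IL12 through STAT4. Among the genes switched on are those of the SOCS family and CISH, whose proteins block the receptor or its kinase and so close the loop. Transcript levels measure neither phosphorylation nor protein.

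Totals ran from 7306151 to 15502443 counts per library. Levels are given as CPM, counts scaled to library size. The Furin transcript had a median of 79.3 CPM in KO and 79.9 CPM in WT with TGFB1, 161 CPM in KO and 485 CPM in WT with IL12, and 32.6 CPM in KO and 34.9 CPM in WT without cytokine. With IL12 the libraries ran from 120 to 463 CPM in KO and from 161 to 533 CPM in WT. These Furin levels do not check the genotype labels, since counts per gene can include exons outside a deleted part. The T cell markers Cd3d, Cd3e, Cd3g, Trac, Lck and Cd2 were read in all libraries. Of the 2 CD4 T cell markers, Cd4 did not exceed 2.37 CPM, and Zbtb7b lay at 9.81 to 25 CPM. Of the markers of B cells, NK cells, myeloid cells, red cells and stroma, Pecam1 and Cd79b alone exceeded 5.99 CPM in any library, and C1qa, Siglech, Hba-a1 and Pdgfra were at 0 in all 30. The summed Cd8a and Cd8b1 level was 953 to 1310 CPM in KO and 1330 to 1990 CPM in WT with TGFB1, 588 to 880 CPM in KO and 846 to 1060 CPM in WT with IL12, and 883 to 974 CPM in KO and 1020 to 1180 CPM in WT without cytokine. The part of this difference in the results below was not tested. In bulk cultures, fewer cells of a type and less RNA per cell cannot be told apart.

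Promoter sequence was at hand for 8 of the 9 genes, from RefSeq on GRCm38.p6, as 10 windows of 250 bases before to 50 bases after a gene's start. They were searched on both strands for the STAT element TTCNNNGAA and for the interferon element GAAANNGAA. The 4 genes with a match are shown. Genes without a match, such as Stat3 and Ifngr2, also differed in level with genotype or cytokine. Cish held 2 STAT elements side by side, with chr9:107296654-107296683 (plus strand) shown, and Socs3 held 1, with chr11:117969501-117969530 (minus strand) shown. Stat2 held 1 interferon element, on the opposite strand to the gene, within the 250 bases before its start, chr10:128270248-128270497 (plus strand). Socs1 held 2 interferon elements that overlap, within chr16:10785537-10785786 (minus strand). Capitals mark the elements.
Cish: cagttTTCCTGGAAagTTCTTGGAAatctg
Socs3: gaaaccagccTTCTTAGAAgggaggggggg
Stat2: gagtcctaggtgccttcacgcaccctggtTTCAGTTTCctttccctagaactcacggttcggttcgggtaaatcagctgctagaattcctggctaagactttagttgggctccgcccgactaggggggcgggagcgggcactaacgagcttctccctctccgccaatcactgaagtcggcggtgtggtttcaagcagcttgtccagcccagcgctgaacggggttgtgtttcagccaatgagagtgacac
Socs1: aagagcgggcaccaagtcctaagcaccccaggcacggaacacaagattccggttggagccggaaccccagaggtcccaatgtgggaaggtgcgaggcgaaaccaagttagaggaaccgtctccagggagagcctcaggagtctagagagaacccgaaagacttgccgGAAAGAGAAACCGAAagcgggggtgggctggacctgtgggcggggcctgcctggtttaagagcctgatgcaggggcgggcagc
Of all 32851 promoter windows, 8.3% hold a STAT element and 8.56% an interferon element. A match in letters is a description and does not show that a factor binds there. For Cish and Socs3 the gene as drawn by GENCODE begins upstream of the RefSeq start, so these letters can lie inside a longer transcript.

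Without cytokine KO cells held less Ifngr2, Stat2 and Socs1 transcript than WT cells, and with TGFB1 they held less Ifngr2 and Stat3 and more Socs2 and Cish. Both cytokines raised Stat5a and Stat5b in both genotypes. Fold changes below are log2 values from edgeR's quasi-likelihood fit to all 30 libraries, with Benjamini-Hochberg adjusted p-values across the whole tested set and a gene called below 0.05. In KO against WT with TGFB1, 4 of 9 were called, 2 higher (Socs2, Cish) and 2 lower (Stat3, Ifngr2), where 35.6% of all tested genes were called, 18.3% higher and 17.3% lower. With IL12 none of the 9 was called by edgeR (6.78% of all genes, 2.76% higher and 4.01% lower), although all 9 fold changes were below 0. Of the 9, 5 had an unadjusted p below 0.05 there, DESeq2 called 2 (Stat2 and Stat3) and limma-voom 1 (Stat2). The matching shares over all tested genes are not given here, so these counts do not set the members apart from other genes. Without cytokine 3 of 9 were lower in KO (Stat2, Socs1, Ifngr2) and 0 higher, against 2.1% of all genes called, 1.08% higher and 1.02% lower.

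TGFB1 against no cytokine gave 6 calls in KO, all higher, where 24.5% of all genes were called (13.5% higher, 11% lower). In WT it gave 5 calls, 4 higher and 1 lower (Socs3), where 37.9% were called (19.2% higher, 18.6% lower). IL12 against no cytokine gave 3 calls in KO, all higher (14.2% of all genes, 8.49% higher and 5.74% lower), and 5 in WT, 3 higher and 2 lower (18.9%, with 10.5% higher and 8.3% lower). The KO and WT responses to TGFB1 differed for 1 member, Socs2, against 3.3% of all genes (1.61% with a higher and 1.69% with a lower response in KO). The responses to IL12 differed for 0 members and 0% of all genes by edgeR (0% higher and 0% lower), DESeq2 and limma-voom, with 513 genes at an unadjusted p below 0.05. Over the 9 members the median log2 fold change of KO over WT was -0.02 with TGFB1, -0.38 with IL12 and -0.53 without cytokine, beside -0.01, 0 and 0 over all tested genes. Comparisons within a genotype share its libraries without cytokine, and those between genotypes share libraries with them, so their values are not independent.

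**Figure D1:**
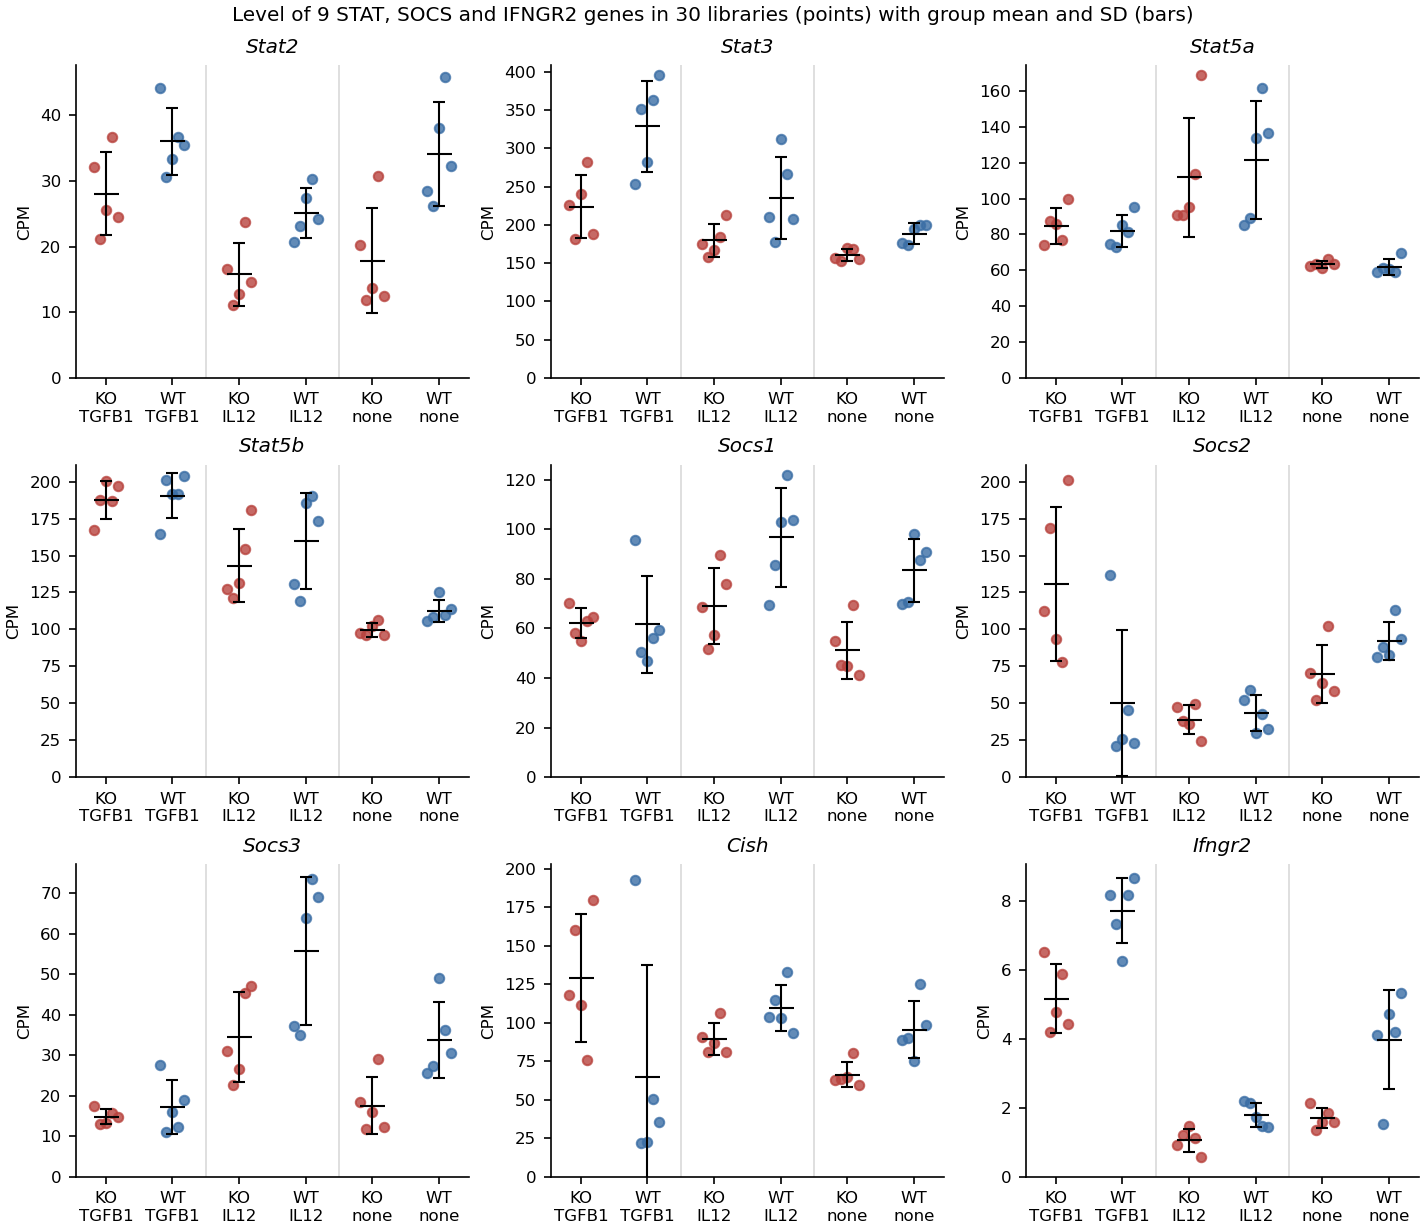
Level of each of the 9 genes as CPM (linear axes that start at 0) in the 5 libraries of each group, KO red and WT blue, with points for libraries, ticks for means and bars for the SD (the lower bar of Cish in WT with TGFB1 is cut at 0). Stat5b sits at 165 to 204 CPM in both genotypes with TGFB1 and at 95.9 to 125 CPM without cytokine, while Socs2 and Cish in WT with TGFB1 show 4 low libraries and 1 high one.

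**Figure D2:**
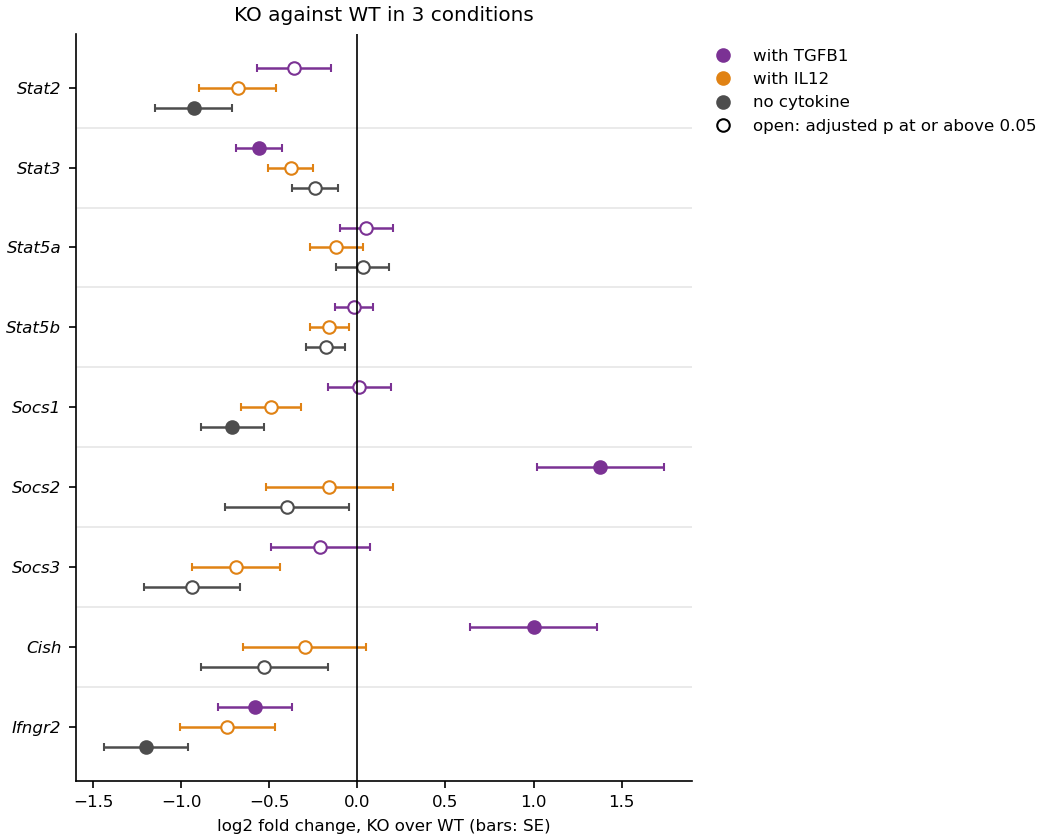
Log2 fold change of KO over WT for the 9 genes with TGFB1 (purple), with IL12 (orange) and without cytokine (grey), with bars for the SE and filled points where the adjusted p is below 0.05. Socs2 and Cish lie to the right with TGFB1 (1.38 and 1.00), and Stat2, Socs1 and Ifngr2 lie to the left without cytokine (-0.93, -0.71 and -1.20).

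Ifngr2 (ENSMUSG00000022965, chr16:91547072-91565623, plus strand, GRCm38) encodes the signalling chain of the interferon gamma receptor, which brings JAK2 to the ligand-binding chain IFNGR1. T cells are known to vary this chain to set their sensitivity to interferon gamma. With TGFB1 it stood at 6.52, 4.21, 4.78, 5.87 and 4.42 CPM in the KO libraries and 8.18, 7.32, 6.27, 8.16 and 8.65 CPM in the WT libraries. With IL12 it stood at 0.925, 1.21, 1.47, 1.11 and 0.577 CPM in KO and 2.19, 2.13, 1.73, 1.47 and 1.45 CPM in WT. Without cytokine it stood at 2.15, 1.36, 1.58, 1.84 and 1.60 CPM in KO and 4.12, 1.54, 4.71, 4.19 and 5.34 CPM in WT. The TGFB1 libraries were thus the highest in each genotype. The KO and WT ranges overlapped slightly through KO 63 and WT 71 with TGFB1 and through KO 70 and WT 75 with IL12. Without cytokine WT 67 lay below all KO libraries but KO 68, and the other WT libraries lay above the KO range.

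TGFB1 raised Ifngr2 in KO by 1.58 ± 0.24 (log2 scale, SE, adjusted p = 1.12e-05 by edgeR) and in WT by 0.96 ± 0.21 (adjusted p = 0.00101), and each TGFB1 library lay above each library of the same genotype without cytokine. IL12 lowered it in WT (-1.14 ± 0.24, adjusted p = 0.00137), while the value in KO was -0.68 ± 0.27 (adjusted p = 0.0914). The responses of KO and WT were not shown to differ, at 0.62 ± 0.32 for TGFB1 (adjusted p = 0.242) and 0.46 ± 0.37 for IL12 (adjusted p = 0.997). KO was lower than WT without cytokine (-1.20 ± 0.24, adjusted p = 0.0132) and with TGFB1 (-0.58 ± 0.21, adjusted p = 0.03), and the value with IL12 was -0.74 ± 0.27 (adjusted p = 0.0908). The call without cytokine ended without KO 68, KO 74, WT 71 or WT 72 (adjusted p 0.0527 to 0.0607), and that with TGFB1 ended without KO 68, KO 70, KO 74 or WT 75 (0.0586 to 0.0826) and with no filter on low counts (0.063). Ifngr2 had the lowest counts of the 9 genes, 7 to 90 per library, which limits its precision.

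Of 4 tested partner chains of interferon and related receptors, all 4 were lower in KO with TGFB1: Ifnar1 (-0.82) and Ifnar2 (-0.95), the chains for type I interferon, Ifngr1 (-0.86) and Il10rb (-0.48), which IL10 and type III interferon use. Of all tested genes 17.3% were lower there, and without 1 library the count was 3 or 4. With TGFB1 the mean of Ifngr1 was 95.2 ± 33.6 CPM in KO, against 173 ± 43.5 CPM in WT (SD, n = 5 each). With IL12 only Ifngr1 was called (-0.80, adjusted p = 0.0434 by edgeR), where 4.01% of all tested genes were lower. Leaving out a library ended that call in 7 of 10 fits. Without cytokine 0 of 4 were called, at a median log2 fold change of -0.56. Ifng itself, the ligand, had a mean of 638 ± 448 CPM in KO and of 796 ± 520 CPM in WT with IL12, and of 15 ± 8.03 CPM in KO and 9.52 ± 3.33 CPM in WT without cytokine. Its rise with IL12 was called in both genotypes (5.43 in KO and 6.37 in WT).

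The kinases did not all move in 1 direction. Jak2, used by the receptors for interferon gamma and IL12, was the 1 member of the family higher in KO, at 0.54 ± 0.09 with IL12 (adjusted p = 0.00234 by edgeR) and 0.36 ± 0.09 without cytokine (adjusted p = 0.0377, a call that 7 of 10 fits without 1 library ended). With IL12 its mean was 128 ± 15.2 CPM in KO, against 88.1 ± 11.8 CPM in WT (SD, n = 5 each). With TGFB1 it was not called, and Jak1 (-0.50) and Jak3 (-0.39), the pair used by the IL2 receptor, were lower in KO. Of all tested genes 2.76% were higher in KO with IL12, 1.08% were higher without cytokine and 17.3% were lower with TGFB1. The TGFB1 response of Jak2 differed between KO and WT by -0.47 (adjusted p = 0.0493), and 15 of 20 fits that left out a library ended this call. A lower response in KO was called for 1.69% of all tested genes.

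Stat2 (ENSMUSG00000040033, chr10:128270559-128292849, plus strand) encodes the STAT that works with IRF9 in the response to type I interferon. Without cytokine it stood at 20.3, 11.9, 13.7, 30.8 and 12.4 CPM in KO and 28.5, 26.1, 38.0, 45.8 and 32.2 CPM in WT. Of the KO libraries only KO 73 reached the WT range. KO was lower by -0.93 ± 0.22 (adjusted p = 0.0261 by edgeR), a ratio of 0.523. The call ended without KO 68, KO 70, KO 74, WT 71 or WT 72 (adjusted p 0.0868 to 0.112), and the fold change was -1.22 without KO 73.

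With IL12 Stat2 had 16.5, 11.1, 12.8, 23.7 and 14.6 CPM in KO and 20.6, 23.1, 27.5, 30.3 and 24.1 CPM in WT, again with KO 73 alone inside the WT range. The fold change of -0.68 ± 0.22 missed the threshold (adjusted p = 0.0581 by edgeR). With TGFB1 the ranges were 21.1 to 36.8 CPM in KO and 30.6 to 44.1 CPM in WT, and the fold change was -0.36 ± 0.21 (adjusted p = 0.186). TGFB1 raised Stat2 in KO (0.65 ± 0.22, adjusted p = 0.0309), a call that ended in 5 of 10 fits without 1 library (without KO 63 or KO 73 with TGFB1, or KO 68, KO 70 or KO 74 without cytokine). The value in WT was 0.08 ± 0.21, and the difference between the 2 responses was 0.57 ± 0.31 (adjusted p = 0.264).

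Genes that STAT2 with IRF9 is known to switch on were lower in KO where called. With TGFB1 5 of 9 tested were lower and 0 higher, with Irf7 at -3.24, Ifit3 at -2.97, Ifit1 at -2.36, Isg15 at -1.75 and Irf9 itself at -0.70. With IL12 3 of 9 were lower (Isg15, Ifit3 and Oasl2), and without cytokine 2 of 9 (Isg15 at -1.30 and Ifit3 at -2.10). The shares lower over all tested genes were 17.3% with TGFB1, 4.01% with IL12 and 1.02% without cytokine. Most of these transcripts were scarce: without cytokine the mean of Isg15 was 3.14 ± 2.42 CPM in KO, against 7.71 ± 1.53 CPM in WT. Leaving out 1 library gave 5 or 6 lower with TGFB1, 0 to 4 with IL12 (fewest without KO 68) and 0 to 4 without cytokine (fewest without KO 63). Stat4, the STAT of IL12, was lower in KO with TGFB1 (-0.87 ± 0.16, adjusted p = 0.000364 by edgeR), and Stat6 was not called.

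Of 11 tested genes known to be induced by interferon gamma, 5 were lower in KO with TGFB1, 4 with IL12 and 4 without cytokine, and 0 were higher. Of all tested genes 17.3% were lower with TGFB1, 4.01% with IL12 and 1.02% without cytokine. Leaving out 1 library gave 4 to 6 with TGFB1, 1 to 7 with IL12 (fewest without WT 75) and 0 to 6 without cytokine (fewest without KO 68). Irf1, a transcription factor induced by interferon gamma, was lower in all 3 conditions (-0.55 with TGFB1, -0.70 with IL12 and -0.53 without cytokine). Psmb9, an immunoproteasome subunit, was lower with TGFB1 (-0.46) and with IL12 (-0.42), and Tap1, the peptide transporter, with TGFB1 (-0.39) and without cytokine (-0.38). Against no cytokine 7 of the 11 were lower with IL12 in KO and 7 in WT, among them Irgm1 (-0.97 in KO and -1.02 in WT) and Gbp2 (-0.89 in KO and -0.78 in WT), GTPases that act on intracellular microbes. Of all tested genes 5.74% were lower with IL12 in KO and 8.3% in WT. The chemokine Cxcl10 was higher with IL12 in both (2.48 in KO and 3.00 in WT).

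Stat3 (ENSMUSG00000004040, chr11:100885098-100939540, minus strand) encodes the STAT of IL6, IL21 and IL10. With TGFB1 it stood at 226, 182, 240.3, 283 and 189 CPM in KO and 254, 351, 282, 363 and 397 CPM in WT. The KO and WT ranges overlapped through KO 73, which lay above WT 62 and WT 71. KO was lower by -0.56 ± 0.13 (adjusted p = 0.00221 by edgeR), and the call held without each library in turn, at -0.66 to -0.49. TGFB1 raised Stat3 in KO by 0.48 ± 0.13 (adjusted p = 0.00767) and in WT by 0.80 ± 0.13 (adjusted p = 4.63e-05), and the difference of -0.32 ± 0.19 was not called (adjusted p = 0.298).

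Without cytokine Stat3 lay at 152 to 169 CPM in KO and 173 to 200.1 CPM in WT, so the groups did not overlap, but the fold change of -0.24 ± 0.13 was not called (adjusted p = 0.333 by edgeR). In a fit on these 2 groups alone, whose spread was smaller, it was called (adjusted p = 0.0243). With IL12 the ranges were 158 to 213 CPM in KO and 178 to 312 CPM in WT, with a fold change of -0.38 ± 0.13 (adjusted p = 0.0697). The 3' ends of Stat3 and Stat5a share 72 exon bases on opposite strands, and the strand setting of the counting is not given in the sources used here, so a part of their reads cannot be assigned with certainty.

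Receptors and targets linked to STAT3 moved with the cytokines in both genotypes. TGFB1 raised Il6ra, the IL6 receptor chain, in KO (2.18) and in WT (2.50), and Il6st, the shared signalling chain gp130, in KO (0.90) and in WT (1.34). IL12 raised Il21r in KO (1.23) and in WT (1.01) and lowered Il6ra in KO (-1.44) and in WT (-1.25). Of 8 tested targets listed for STAT3, 5 were higher with IL12 in KO and 6 in WT (8.49% and 10.5% of all tested genes), with Prdm1, a driver of effector differentiation, at 3.44 in KO and 3.33 in WT and Junb at 0.76 in KO and 0.96 in WT. In KO against WT with TGFB1 2 of the 8 were lower, Bcl3 (-1.04) and Mcl1 (-0.36), where 17.3% of all tested genes were lower.

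Stat5a (ENSMUSG00000004043, chr11:100859351-100885169, plus strand) and Stat5b (ENSMUSG00000020919, chr11:100780731-100850724, minus strand) are neighbouring paralogs that carry the signal of IL2, IL7 and IL15. Neither was called between the genotypes in any condition, and both rose with both cytokines. Their sequences are very similar, so reads may be split between them with error. Without cytokine Stat5b stood at 97.5, 95.9, 103, 106 and 96.2 CPM in KO and 106, 108, 125, 109.8 and 114 CPM in WT. With TGFB1 it stood at 167, 188, 201, 187 and 197 CPM in KO and 165, 201, 192, 191 and 204 CPM in WT. TGFB1 raised it in KO by 0.91 ± 0.11 (adjusted p = 3.01e-07 by edgeR) and in WT by 0.76 ± 0.11 (adjusted p = 8.19e-06), with no overlap with the libraries without cytokine in either genotype. IL12 raised it by 0.52 ± 0.11 in KO (adjusted p = 0.0014) and 0.51 ± 0.11 in WT (adjusted p = 0.00151), and these 4 calls held without each library.

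Among the 4 STAT members Stat5a had the highest fold change with IL12, an order that was not tested. It stood at 90.9, 90.6, 95.1, 114 and 169 CPM in KO and 85.4, 89.2, 134, 162 and 136 CPM in WT with IL12. Without cytokine it lay within 61.4 to 66.4 CPM in KO and 59.1 to 69.7 CPM in WT, below all IL12 libraries of the same genotype. The rise was 0.82 ± 0.15 in KO (adjusted p = 0.000448 by edgeR) and 0.97 ± 0.15 in WT (adjusted p = 5.24e-05). WT 62 and WT 67 lay below WT 71, 72 and 75 with IL12, for Stat5a, Stat5b and Socs3 alike. With a term for numbers above 70 in the fit, the rise of Stat5a was 0.79 in KO and 0.94 in WT. The labels do not say what these numbers stand for.

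TGFB1 raised Stat5a by 0.42 ± 0.15 in KO (adjusted p = 0.0429 by edgeR) and 0.40 ± 0.15 in WT (adjusted p = 0.0375). Both calls lay close to the threshold. In KO the call ended without any library but KO 63 or KO 73 with TGFB1 (adjusted p 0.0534 to 0.118). In WT it ended without WT 71 or WT 75 with TGFB1 or WT 62, 67, 71 or 72 without cytokine (0.0534 to 0.0975). Stat5a held 25.9 ± 1.6% of the summed length-scaled level of both genes in KO and 25.1 ± 1.8% in WT with TGFB1, 37.3 ± 2.65% in KO and 36.8 ± 2.27% in WT with IL12, and 33.1 ± 0.909% in KO and 30 ± 1.77% in WT without cytokine (SD, n = 5 each). Stat5b thus held the larger share in every group, and the mean share of Stat5a was lowest with TGFB1 and highest with IL12 in both genotypes, as a description with no test. Between KO and WT the fold change of Stat5a was 0.05 with TGFB1, -0.12 with IL12 and 0.03 without cytokine, each with an SE of 0.15. That of Stat5b was -0.02, -0.16 and -0.18, each with an SE of 0.11.

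**Figure D3:**
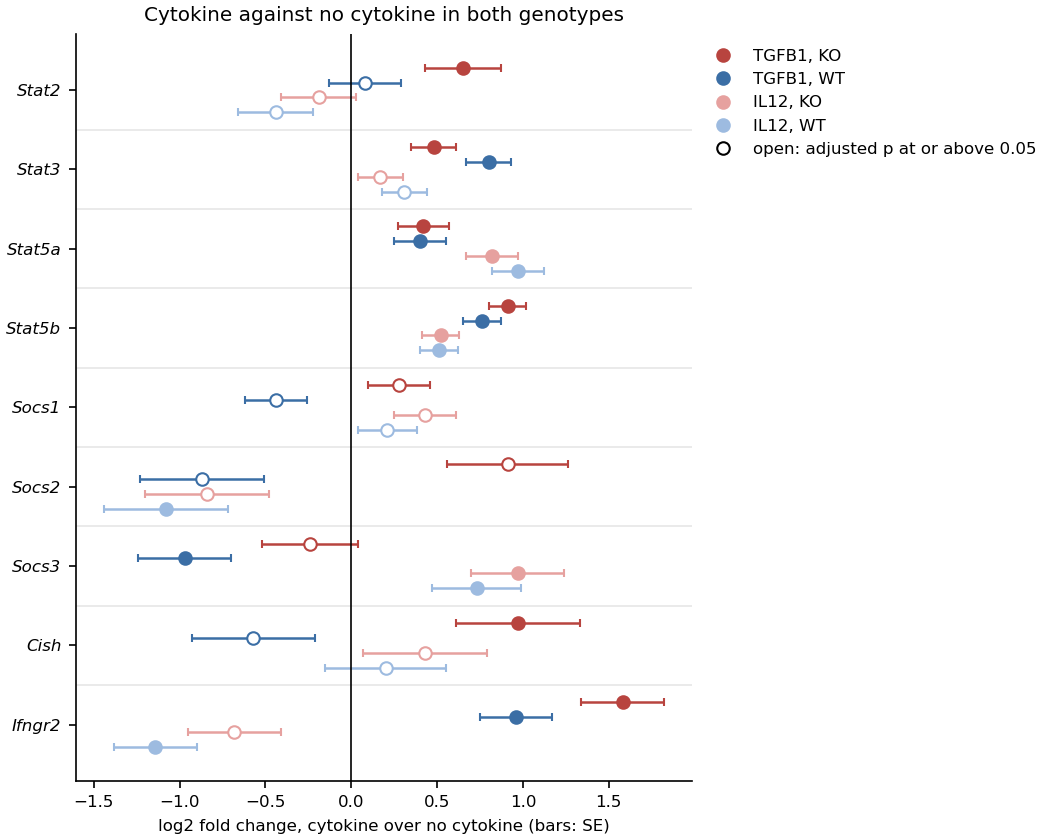
Log2 fold change of each cytokine over no cytokine for the 9 genes, with TGFB1 in dark and IL12 in pale colours, KO red and WT blue, bars for the SE and filled points where the adjusted p is below 0.05. Stat5a and Stat5b lie to the right under both cytokines in both genotypes (0.40 to 0.97), while Ifngr2 lies to the right with TGFB1 (1.58 in KO, 0.96 in WT) and to the left with IL12 (-0.68 in KO, -1.14 in WT).

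Socs1 (ENSMUSG00000038037, chr16:10782240-10785536, minus strand) encodes the main brake on interferon gamma signalling, which inhibits the JAKs directly. Without cytokine it stood at 55.0, 45.2, 45.0, 69.3 and 41.2 CPM in KO and 69.7, 70.8, 98.2, 87.7 and 90.8 CPM in WT. Each KO library lay below each WT library, with KO 73 next to WT 62. KO was lower by -0.71 ± 0.18 (adjusted p = 0.0334 by edgeR). The call ended without KO 68, KO 70, KO 74, WT 71, WT 72 or WT 75 (adjusted p 0.0741 to 0.126), while the fold change stayed between -0.84 and -0.63.

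With IL12 Socs1 stood at 68.6, 51.5, 57.2, 89.8 and 78.0 CPM in KO and 69.4, 85.5, 103, 122 and 104 CPM in WT, at -0.49 ± 0.17 (adjusted p = 0.0847 by edgeR). With TGFB1 it stood at 70.4, 58.4, 54.9, 62.8 and 64.6 CPM in KO and 95.7, 50.6, 46.9, 56.1 and 59.3 CPM in WT. WT 62 held the top value there, and the fold change of KO over WT was 0.01 ± 0.18, with a sign that turned in 6 of 10 fits without 1 library. TGFB1 against no cytokine gave 0.28 ± 0.18 in KO (adjusted p = 0.26) and -0.44 ± 0.18 in WT (adjusted p = 0.0503 by edgeR). That WT value lay at the threshold and was called with RLE factors, with no filter, by DESeq2, by limma-voom, and with the term for sex or for numbers above 70 (adjusted p 0.0309 to 0.0498). Without WT 62 with TGFB1 the WT value was -0.65 (adjusted p = 0.00172), and the difference between the responses was 0.93 (adjusted p = 0.00489), against 0.72 ± 0.25 (adjusted p = 0.0921) with all libraries.

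Socs3 (ENSMUSG00000053113, chr11:117966079-117970047, minus strand) encodes the brake on gp130, the receptor chain of IL6, and on the IL12 receptor. With IL12 it stood at 31.0, 22.7, 26.6, 45.3 and 47.1 CPM in KO and 37.2, 35.1, 63.9, 73.5 and 69.2 CPM in WT. Without cytokine it stood at 18.6, 11.9, 16.1, 29.2 and 12.2 CPM in KO and 25.6, 27.5, 49.0, 36.3 and 30.5 CPM in WT. Only KO 73 entered the WT range without cytokine. IL12 raised Socs3 in KO by 0.97 ± 0.27 (adjusted p = 0.0125 by edgeR), a call that ended without KO 74 with IL12 (adjusted p = 0.0532). In WT the rise was 0.73 ± 0.26 (adjusted p = 0.0456), and 7 of 10 fits without 1 library ended that call (0.0654 to 0.138): those without WT 71, 72 or 75 with IL12 and those without WT 62, 67, 72 or 75 without cytokine.

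TGFB1 lowered Socs3 in WT (-0.97 ± 0.27, adjusted p = 0.00534 by edgeR), and this call held without each library (-1.21 to -0.79). Its TGFB1 levels were 12.9 to 17.6 CPM in KO and 10.97 to 27.7 CPM in WT, and the response of KO was -0.24 ± 0.28 (adjusted p = 0.562). The difference between the responses was 0.73 ± 0.38 and was not called (adjusted p = 0.252). KO against WT gave -0.94 ± 0.27 without cytokine (adjusted p = 0.0592) and -0.69 ± 0.25 with IL12 (adjusted p = 0.0926). The value without cytokine was called without KO 73 (-1.20, adjusted p = 0.01), without WT 62 (adjusted p = 0.0438), with no filter on low counts (0.0292) and by DESeq2 (0.0193). Of the 4 other SOCS genes, 1 was higher in KO with TGFB1 (Socs5, 0.30), where 18.3% of all tested genes were higher. With IL12 1 was higher (Socs7, 0.29), where 2.76% of all were, and 0 were called in any other comparison. Fits without 1 library gave 0 to 2 with TGFB1 (0 without KO 68) and 0 or 1 with IL12 (0 without KO 68).

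Socs2 (ENSMUSG00000020027, chr10:95385362-95417180, minus strand), which encodes a negative regulator of growth hormone and STAT5 signalling, and Cish (ENSMUSG00000032578, chr9:107296026-107302784, plus strand), whose protein restrains T cell receptor and IL2 signalling, are both known STAT5 targets. Both were higher in KO than in WT with TGFB1 and not without it. With TGFB1 Socs2 stood at 112, 169, 93.6, 77.8 and 201 CPM in KO and 137, 21, 25.9, 45.3 and 22.97 CPM in WT. Cish stood at 118, 160.3, 112, 75.6 and 179.9 CPM in KO and 193, 22.1, 22.6, 50.7 and 35.7 CPM in WT. All 5 KO libraries lay above WT 67, 71, 72 and 75 for both genes, and WT 62 lay within or above the KO range. WT 62 is the 1 WT library from a male with TGFB1, so sex and library cannot be told apart here.

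Without cytokine Socs2 lay at 52.3 to 103 CPM in KO and 81.2 to 113 CPM in WT, and Cish at 59.8 to 80.2 CPM in KO and 75.03 to 125 CPM in WT, neither of them called. With IL12 Socs2 lay at 24.4 to 49.5 CPM in KO and 30.3 to 58.9 CPM in WT, and Cish at 80.7 to 106 CPM in KO and 93.6 to 133 CPM in WT, neither called. IL12 lowered Socs2 in WT (-1.08 ± 0.36, adjusted p = 0.0351 by edgeR), with all WT libraries below those without cytokine, but 7 of 10 fits without 1 library ended the call (0.0514 to 0.094): those without WT 71, 72 or 75 with IL12 and those without WT 67, 71, 72 or 75 without cytokine. In KO the value was -0.84 ± 0.36 (adjusted p = 0.122), also with no overlap. The fold change of Cish with IL12 was 0.43 ± 0.36 in KO and 0.20 ± 0.35 in WT, neither called. Fits on the compared groups alone gave other calls. They called the IL12 responses of Cish (adjusted p = 0.00649 by edgeR) and Socs2 (0.0108) in KO. Cish was then also called lower in KO than in WT without cytokine (-0.53, adjusted p = 0.0197).

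With TGFB1 KO exceeded WT for Socs2 by 1.38 ± 0.36 (adjusted p = 0.00448 by edgeR) and for Cish by 1.00 ± 0.36 (adjusted p = 0.0307). Without WT 62 these became 2.18 (adjusted p = 1.98e-06) and 1.98 (adjusted p = 5.65e-07). The call on Socs2 held without each library and ended in a fit on the 2 groups alone (adjusted p = 0.0649). The call on Cish ended in that fit (0.179) and without KO 68, KO 74, WT 67, WT 71, WT 72 or WT 75 (0.061 to 0.0966). Exons of Cish overlap 2 annotated genes on the opposite strand, Gm17040 by 261 bases and Gm17041 by 479 bases, so its reads are uncertain to that extent.

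The TGFB1 responses of both genes had opposite signs in the genotypes. For Socs2 the response was 0.91 ± 0.35 in KO (adjusted p = 0.0593 by edgeR) and -0.87 ± 0.36 in WT (adjusted p = 0.0553), a difference of 1.78 ± 0.50 that was called (adjusted p = 0.0472). For Cish it was 0.97 ± 0.36 in KO (adjusted p = 0.0483) and -0.57 ± 0.36 in WT (adjusted p = 0.219), a difference of 1.53 ± 0.51 (adjusted p = 0.0777). By limma-voom the WT response was called for Socs2 (-1.28, adjusted p = 0.00354) and for Cish (-1.10, adjusted p = 0.00952), as was the difference for Cish (2.005, adjusted p = 0.0205). With a term for sex in the edgeR fit, the WT response of Socs2 was called (-1.04, adjusted p = 0.0192). So were the KO response of Socs2 (0.93, adjusted p = 0.0408) and the difference for Cish (1.72, adjusted p = 0.0446). The rise of Cish in KO was called in 1 of 10 fits without 1 library, that without KO 73 with TGFB1, and the difference for Socs2 ended in 14 of 20 (0.0533 to 0.11). Without WT 62 with TGFB1 the WT responses were -1.67 for Socs2 (adjusted p = 1.67e-05) and -1.54 for Cish (adjusted p = 2.08e-06). The differences were then 2.58 for Socs2 (adjusted p = 8.22e-05) and 2.51 for Cish (adjusted p = 1.83e-05). The 14 libraries whose omission ended the call on the Socs2 difference were, with TGFB1, KO 63, 68 and 74 and WT 67, 71 and 75, and without cytokine, KO 63, 68, 70 and 74 and WT 62, 67, 72 and 75.

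**Figure D4:**
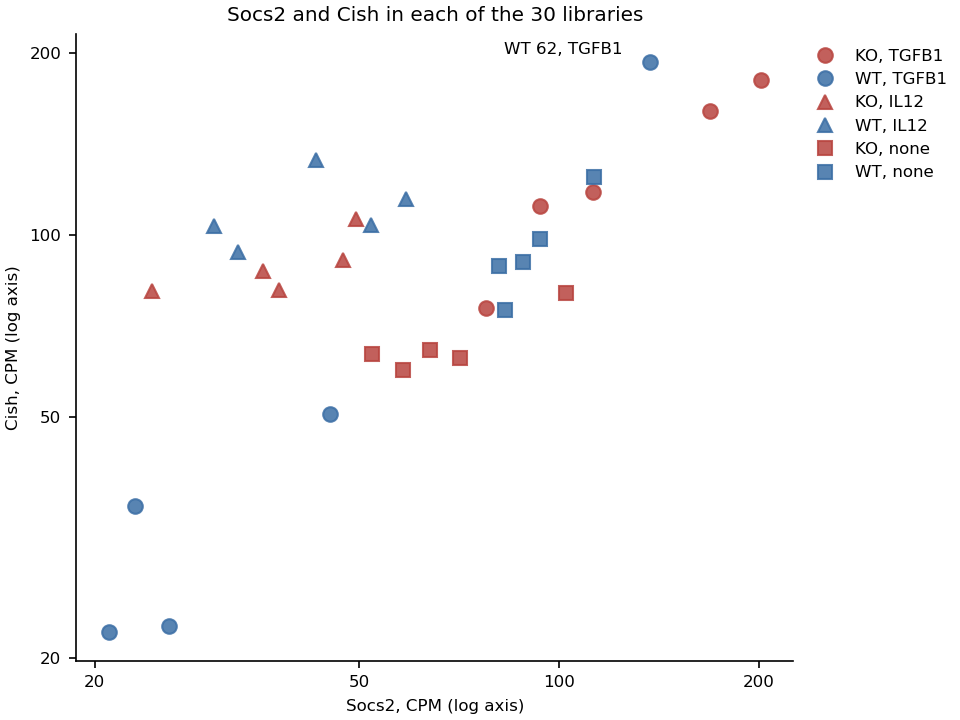
Level of Cish (vertical) and of Socs2 (horizontal), in CPM on logarithmic axes, in each of the 30 libraries, KO red and WT blue, with TGFB1 as circles, IL12 as triangles and no cytokine as squares. The 4 WT libraries with TGFB1 at the lower left hold 21 to 45.3 CPM of Socs2 and 22.1 to 50.7 CPM of Cish, and WT 62 with TGFB1 lies with the KO libraries at the upper right.

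Other known STAT5 targets were tested from a list of 11. In KO against WT with TGFB1 6 of 11 were higher and 0 lower: Il2ra, the inducible IL2 receptor chain (1.30 ± 0.25, adjusted p = 0.000474 by edgeR), Myc (0.75), Pim1 (0.55), Bcl2l1 (0.53), Pim2 (0.30) and Ccnd2 (0.28). The median log2 fold change of the 11 was 0.42, beside -0.01 over all tested genes, of which 18.3% were higher. TGFB1 lowered 8 of the 11 in WT, with Lif at -2.07, Osm at -1.51, Bcl2 at -1.24, Myc at -1.06 and Il2ra at -1.02, and in KO it lowered 0 and raised 1 (Id2, 0.51). Of all tested genes TGFB1 lowered 18.6% and raised 19.2% in WT, and lowered 11% and raised 13.5% in KO. The TGFB1 response itself differed between KO and WT for Il2ra (1.25, adjusted p = 0.0416) and Pim1 (0.87, adjusted p = 0.0265), and for 0 to 7 of the 11 in fits without 1 library. Of all tested genes 3.3% differed in response, 1.61% with a higher and 1.69% with a lower response in KO. In an alternative added after the data were seen, without WT 62 with TGFB1, 9 were higher in KO, 10 were lower with TGFB1 in WT and 7 differed in response. Without 1 library the count higher in KO ran from 3 to 9, the lowest being without KO 68 with TGFB1.

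WT 62 with TGFB1 also held the top WT value of Il2ra, 867 CPM, and of Lif, 82 CPM, in a group whose lowest values were 211 CPM and 5.47 CPM. With TGFB1 the mean of Il2ra was 988 ± 299 CPM in KO, against 401 ± 266 CPM in WT (SD, n = 5 each). Il2, the ligand of this receptor, was higher in KO without cytokine (2.71, called without each library) and with IL12 (1.68, a call that 3 of 10 fits without 1 library ended) and was not called with TGFB1, where its mean was 2.17 ± 1.04 CPM in KO, against 1.5 ± 1.42 CPM in WT. Il2rb (-0.69) and Il2rg (-0.37), the other chains of the receptor, were lower in KO with TGFB1.

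**Figure D5:**
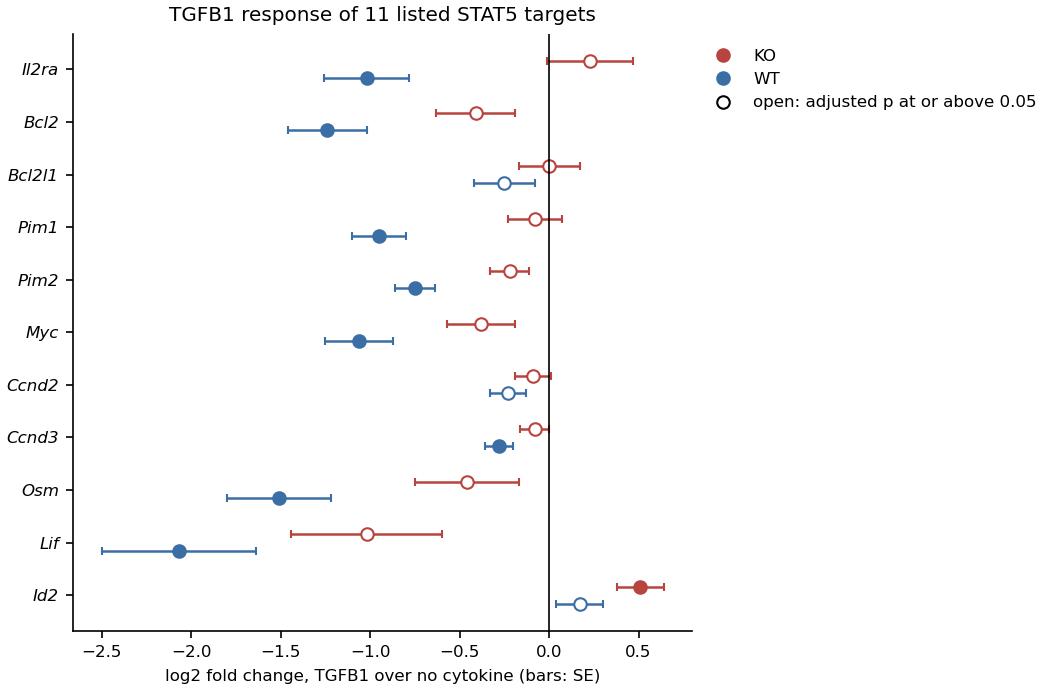
Log2 fold change of TGFB1 over no cytokine for 11 listed targets of STAT5, KO in red above WT in blue, with bars for the SE and filled points where the adjusted p is below 0.05. In WT 8 of the 11 points are filled and lie to the left of 0, down to -2.07 for Lif, and in KO 1 is filled, Id2 at 0.51. Of all tested genes 18.6% were lower with TGFB1 in WT and 13.5% higher in KO.

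Scaled by exon length, the members differed widely in level. Group means of Stat3 ran from 16.8 to 34.6 CPM per kb, those of Stat5b from 18 to 34.4, those of Socs1 from 17.6 to 33.2 and those of Cish from 10.1 to 20.1. Ifngr2 lay lowest, at 0.281 to 2.05 CPM per kb. When the 6 groups are ranked by mean CPM for each gene, the library ranges of neighbouring groups overlapped at all steps but 2. The exceptions were Stat5a between WT with TGFB1 and KO without cytokine, and Cish between KO with IL12 and KO without cytokine. The top group was WT with TGFB1 for Ifngr2, Stat2, Stat3 and Stat5b, WT with IL12 for Stat5a, Socs1 and Socs3, and KO with TGFB1 for Socs2 and Cish.

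Over the 30 libraries, which share groups and cultures, log2 CPM of Socs1 and Socs3 had a Pearson r of 0.872, the highest of the 36 pairs of members, followed by Stat3 with Stat5b at 0.78, Stat2 with Ifngr2 at 0.738 and Socs2 with Cish at 0.677. Stat5a with Socs2 was lowest, at -0.462. Among tested genes of at least 4 CPM on average, the one most like Stat5a was Furin itself (r of 0.952), followed by Erc1 and Anxa4. Socs3 was most like Ccnd3 (0.958), Csrnp1 and Il10ra, and Ifngr2 most like Tap1 (0.921), Neurl3 and Cd101. Socs2 was most like Iqcb1 (0.933), Cradd and Mpp1, and Cish most like Sco1 (0.928), Coro2a and Fez2. For Stat2 the closest was Cep97 (0.918), for Stat3 Grina (0.923), for Stat5b Fam241a (0.944) and for Socs1 Tspoap1 (0.876). These values describe likeness across groups and libraries and carry no test.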

How the data were processed

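RNA was sequenced from 30 libraries of stimulated mouse CD8+ T cells, made with a directional kit after polyA selection per the labels' protocols. The authors deposited raw counts per gene; FastQC, Trim Galore, STAR, DESeq2 1.24.0 and the build GRCm38 are named, with no order, in the submitters' processing notes. The counting tool, its strand setting and its annotation were not given in the sources used. Groups come from the labels. Symbols come from GENCODE vM21, matched for 55480 of 55573 genes, and rows without a symbol hold 0.00021% of counts.

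Counts were tested with edgeR 4.0.16 in R 4.3.3 (quasi-likelihood, 1 mean per group over all 30 libraries, TMM scaling, filterByExpr at a minimum count of 10, Benjamini-Hochberg adjustment over 11718 genes, called below 0.05). The tests were tested on simulated counts. Library totals ran from 7306151 to 15502443, and the biological coefficient of variation was 14.3%. CPM is per library size after TMM scaling, and log2 CPM uses a prior count of 1. The labels give both sexes in each group but do not say that all its libraries came from separate animals. The p-values thus measure the spread between these samples, which may be technical in part. Alternatives were RLE factors, no filter, a minimum count of 50, DESeq2 1.42.0, limma-voom (limma 3.58.1), a replicate block, terms for sex and for numbers above 70, a fit restricted to the compared groups, and omission of each library in turn.

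The members, the gene lists (other STATs, JAKs, SOCS genes, receptor chains, ligands, brakes and targets) and the tests were chosen with earlier results of these data known. All members are named, and for other genes those called in a list, with examples and the 3 most like genes by Pearson r among genes of at least 4 CPM on average. Results for some other genes are not reported here. Figures were drawn with matplotlib 3.10.9.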

Additional observations from a re-analysis of the deposited data

Results flagged for a closer look

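In 54 sets of 5 libraries (9 genes in 6 groups), 1 library stood far from the other 4 in 5 sets, beyond Dixon's 95% limit, which chance passes in about 1 of 20 groups. Of these, 3 concern WT 62 with TGFB1, with 137 CPM of Socs2 (21 to 45.3 CPM in the others), 193 CPM of Cish (22.1 to 50.7 CPM) and 95.7 CPM of Socs1 (46.9 to 59.3 CPM). KO 73 without cytokine had 80.2 CPM of Cish, where the others had 59.8 to 64.5 CPM. WT 75 without cytokine had 69.7 CPM of Stat5a, where the others had 59.1 to 61.5 CPM. A difference between the genotypes in response was called for Socs2 with TGFB1, at 1.78 on the log2 scale.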

How the results depend on the processing

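Of 1719 alternative values for the 81 fold changes of the 9 genes, 1543 kept direction and side of the threshold, 89 lost a call, 60 gained one and 27 changed sign. Counts that moved by over 1.5 times are given here. For KO over WT without cytokine (3 members, 246 genes), the compared groups alone gave 6 members and 1099 genes, and DESeq2 460 genes. With TGFB1 (4 members, 4166 genes) the groups alone gave 2 members and 2307 genes. With IL12 (0 members, 794 genes) DESeq2 gave 2 members, limma-voom 1, limma-voom with the replicate block 1, no filter 504 genes and the groups alone 45. For TGFB1 in WT (5 members), limma-voom and edgeR with the replicate block each gave 8 members, and for IL12 in KO (3 members) the groups alone gave 5. For the difference in TGFB1 response (1 member, 387 genes), limma-voom gave 2 members, the replicate block 4 members and 1073 genes, the term for sex 2 members, the groups alone 0 members and DESeq2 776 genes.

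Leaving out 1 library gave, for KO over WT, 0 to 4 members and 7 to 564 genes without cytokine, 2 to 4 members with TGFB1, and 0 to 4 members and 174 to 1530 genes with IL12. It gave 3 to 6 members for TGFB1 in KO, 4 to 8 for TGFB1 in WT, 1043 to 1612 genes for IL12 in KO, 3 to 6 members and 1324 to 2727 genes for IL12 in WT, and 0 to 3 members and 58 to 2155 genes for the difference in TGFB1 response. The sign changed over these fits for Stat5a (-0.027 to 0.103), Stat5b (-0.068 to 0.012, and 0.022 with the term for numbers above 70), Socs1 (-0.071 to 0.226) and Socs3 (-0.333 to 0.024) in KO over WT with TGFB1, for Stat5a with IL12 (-0.316 to 0.009), for Socs3 with TGFB1 in KO (-0.357 to 0.014), for Stat2 with TGFB1 in WT (-0.005 to 0.206) and with IL12 in KO (-0.381 to 0.1), for Stat5a in the difference with TGFB1 (-0.065 to 0.065) and for Stat5b in that with IL12 (-0.085 to 0.082). The cause was not tested.

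Library numbers recur in all conditions of a genotype, and 25 of 30 pairs with the same number deviated together (correlation over 0.1, range -0.03 to 0.43), while 26 of 30 libraries correlated best with their own number. This is a hint from the data, since the labels do not say that a number marks an animal. The consensus correlation of the replicate block was 0.142. With the block the calls gained were Stat2 in KO over WT with IL12 (adjusted p = 0.0236), Socs2 for TGFB1 in KO (0.0403), Socs1 (0.0352), Socs2 (0.00905) and Cish (0.0323) for TGFB1 in WT, Stat2 for IL12 in WT (0.0109), and Stat2 (0.0281), Socs1 (0.0484) and Cish (0.0194) for the difference in TGFB1 response, and no member lost one. Depth limits Ifngr2 most, at 7 to 90 counts per library.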

Other observations

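Of 13 interleukin receptor chains, 3 were lower in KO without cytokine and 0 higher: Il7r, the IL7 receptor (-1.26), Il4ra (-0.61) and Il2rb (-0.56). Of all tested genes 1.02% were lower there and 1.08% higher. With TGFB1 1 chain was higher and 4 lower, or 5 of 13, where 35.6% of all tested genes were called. With IL12 1 chain was lower, where 4.01% of all tested genes were lower. Without 1 library the counts of lower chains were 1 to 5 with TGFB1 (fewest without WT 75), 0 to 2 with IL12 (fewest without KO 63) and 0 to 5 without cytokine (fewest without KO 68). TGFB1 raised 4 chains and lowered 2 in KO and raised 5 and lowered 4 in WT, with Il7r higher (1.78 in KO and 1.09 in WT) and Il15ra lower (-1.57 in KO and -0.76 in WT). Of all tested genes it raised 13.5% and lowered 11% in KO, and raised 19.2% and lowered 18.6% in WT. IL12 raised 6 chains and lowered 2 in KO and raised 7 and lowered 2 in WT, among them Il12rb2, the signalling chain of the IL12 receptor, at 1.75 in KO and 1.29 in WT. Of all tested genes it raised 8.49% and lowered 5.74% in KO, and raised 10.5% and lowered 8.3% in WT. Without WT 71 with IL12 the count of chains raised in WT was 2. The TGFB1 response of 2 chains was higher in KO than in WT, Il2ra (1.25) and Il4ra (0.91), beside 1.61% of all tested genes.

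Of 11 phosphatases and other brakes on the pathway, 1 was higher and 3 lower in KO with TGFB1: Pias2 (0.30), Pias3 (-0.61), the ubiquitin ligase Cblb (-0.57) and Pias1 (-0.29). These 4 of 11 stand beside 35.6% of all tested genes called in that comparison. With IL12 2 were lower, the tyrosine phosphatases Ptpn2 (-0.36) and Ptpn1 (-0.28), where 4.01% of all tested genes were lower. Fits without 1 library gave 0 to 2 (fewest without KO 63). Without cytokine 0 were called by edgeR. Of 12 listed ligands 5 were tested, and IL12 raised 3 in KO and 4 in WT, where it raised 8.49% and 10.5% of all tested genes. Without 1 library the counts were 1 to 3 in KO (fewest without KO 74) and 2 to 4 in WT (fewest without WT 72). In KO against WT with IL12, Il2 was higher and Il10, an inhibitory cytokine, was lower (-2.50, adjusted p = 0.0132 by edgeR), a call that 2 of 10 fits without 1 library ended. Il10 was scarce, at 0.191 to 2.14 CPM in KO and 0.388 to 12.2 CPM in WT.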
